A study of Ovis aries with 8 samples.

Results

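The genes described here encode laminins, elastic fibre components and other noncollagen glycoproteins and proteoglycans of the extracellular matrix. The set was a fixed list of 42 gene symbols, and 37 of them had a row of that name among the 14577 genes measured. Its genes were not filtered on the group difference, but the list was chosen with earlier results of these data known. Its shares beside those of all genes are therefore descriptions and not tests. LAMA2, LAMA3, HSPG2, AGRN and FBLN2 matched no row and were not analysed here. The RNA came from endothelial cells, the inner lining of blood vessels, cultured from the pulmonary arteries of near-term fetal sheep (Ovis aries), and was measured on 1-colour arrays. There were 4 cultures labelled as control and normothermic and 4 labelled as intrauterine growth restriction (IUGR) and hyperthermic, with 1 array per culture and a separate animal identifier for each. Every culture was grown in DMEM with 10% fetal bovine serum. The titles put the control cultures at passage 5 or 6 and the IUGR cultures at passage 3 or 4. Growth restriction, hyperthermia and passage therefore cannot be told apart in these arrays. The design asks which genes are expressed at other levels in such cultures after restricted growth.

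Endothelial cells rest on a basement membrane, a thin sheet in which trimeric laminins polymerise and nidogens tie the laminin layer to collagen IV. Outside it, arteries stretch and recoil on elastic fibres, which are elastin laid down on fibrillin microfibrils with the help of fibulins and other linker proteins. The space between is filled by interstitial proteoglycans such as decorin and lumican, which coat collagen fibrils and are typical products of fibroblasts. Matricellular glycoproteins such as thrombospondins, tenascin C and periostin tune adhesion rather than carry load.

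Values are log2 intensities, ± gives the SE of a difference, and a difference is IUGR minus control. Intensities below 2.56 on the log2 scale were raised to that floor, and 3.44, the 95th percentile of 127 olfactory receptor rows, was taken as a background level. No gene of the set lay at or below that level on all 8 arrays, and 36 of the 37 had a mean above it. The exception was LAMA1, a laminin chain of early embryonic basement membranes, whose values ran from 2.99 to 3.99.

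The cultures differed in their cell type markers. Of 13 endothelial markers 9 were measured, all 9 had a lower mean in IUGR, and their summed intensity was 3314 to 10421 in control and 101 to 3321 in IUGR cultures. PECAM1, an endothelial junction protein, was 11.11, 11.29, 11.55 and 9.62 in control replicates 1 to 4 and 7.64, 3.31, 9.50 and 3.63 in IUGR replicates 1 to 4. CDH5, VE-cadherin, was 10.59, 10.92, 10.97 and 9.22 in control and 7.74, 2.85, 9.42 and 3.49 in IUGR. The defining markers of the endothelial label were therefore near background in IUGR replicates 2 and 4, where 4 of the 9 lay at or below it: PECAM1, CDH5, KDR and EMCN in replicate 2 and KDR, VWF, ERG and EMCN in replicate 4. Epithelial and mesothelial markers, 10 of 12 measured, summed to 147 to 205 in control, 171 and 174 in IUGR replicates 3 and 1, and 8917 and 13678 in IUGR replicates 2 and 4. The keratin gene KRT18 was 5.09, 9.06, 5.21 and 11.04 in IUGR. In IUGR replicates 2 and 4, KRT8 was 11.67 and 12.22 and LRRN4 11.95 and 12.25. EPCAM was 2.56 and 3.45 and CALB2 2.97 and 2.79 on the same arrays, at or near background. The means of 8 of the 10 were higher in IUGR and those of EPCAM and CALB2 lower. Fibroblast markers outside the set, 11 of 12 measured, summed to 553 to 1215 in the first 3 control replicates, 10287 in the fourth and 4658 to 12253 in IUGR, and smooth muscle markers, 9 of 10 measured, to 1153 to 2898, 19921, and 1431 to 11317. PDGFRA, a fibroblast receptor, was 3.24, 3.72, 4.11 and 4.28 in control and 6.05, 8.75, 6.32 and 9.30 in IUGR. Some other fibroblast markers were high in control replicate 4, such as FAP at 8.76 and PDGFRB at 10.05, against at most 2.56 and 5.65 in the other controls. The means of 10 of the 11 fibroblast markers were higher in IUGR, SCARA5 by only 0.12, and that of PI16 was lower (difference -0.55). MYH11, smooth muscle myosin, was 3.74, 4.47, 3.53 and 9.21 in control and 7.51, 3.98, 5.15 and 3.61 in IUGR. The means of 7 of the 9 smooth muscle markers were higher in IUGR and those of MYH11 and MYOCD lower, and the actin gene ACTA2 was 8.63, 7.89, 6.46 and 13.09 in control and 12.12, 10.70, 11.80 and 8.30 in IUGR. Leukocyte markers, 8 of 8 measured, summed to 522 to 1473 in control and 239 to 1213 in IUGR, and PTPRC, which all leukocytes carry, did not exceed 2.99. LAPTM5, a lysosomal gene of that list, was 9.68, 10.09, 9.88 and 8.27 in control and 7.02, 3.29, 9.95 and 3.49 in IUGR, and CD14, a monocyte receptor, 6.08 to 8.02 in control and 5.72 to 6.83 in IUGR. The part of these other cells in the matrix values was not tested. In such bulk samples, fewer cells of a type and less RNA per cell cannot be told apart.

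All 10 measured laminin and nidogen genes had a lower mean in IUGR cultures, and 8 of 15 elastic fibre and 4 of 5 interstitial genes a higher one. Over all 14577 genes, 7381 means were higher and 7196 lower. The laminin differences ran from -2.92 to as little as -0.04, and those of LAMA4, LAMA5, LAMB3, LAMC3 and NID1 turned in some alternative fits. None of the 37 genes passed an adjusted p of 0.05 in limma, fitted over all genes, against 0.0686% of all genes that did. At an unadjusted p under 0.05 there were 11 of 37 (29.7%), against 15.9% of all genes. Of these, 6 were higher in IUGR, where the share over all genes was 8.2%, and 5 were lower, against 7.68%. The 4 arrays of one group lay wholly above the 4 of the other for 10 of 37 genes (27.0%), against 8.65% of all genes. EFEMP1, EFEMP2, MFAP4, LTBP2, DCN and LUM were the 6 higher ones (against 4.53% of all genes), and LAMA4, LAMC1, NID2 and SPARCL1 the 4 lower ones (against 4.12% of all genes). Each of these 10 had an exact two-sided permutation p of 0.0286, the smallest that 4 against 4 arrays allow. No other gene of the set had an exact permutation p under 0.05. Both statements follow from the overlap count, since only groups that do not overlap reach that p, so they are no further test. The median difference over the 37 genes was -0.07, against 0 over all genes, while the median size of the difference was 1.10, against 0.22.

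**Figure D1:**
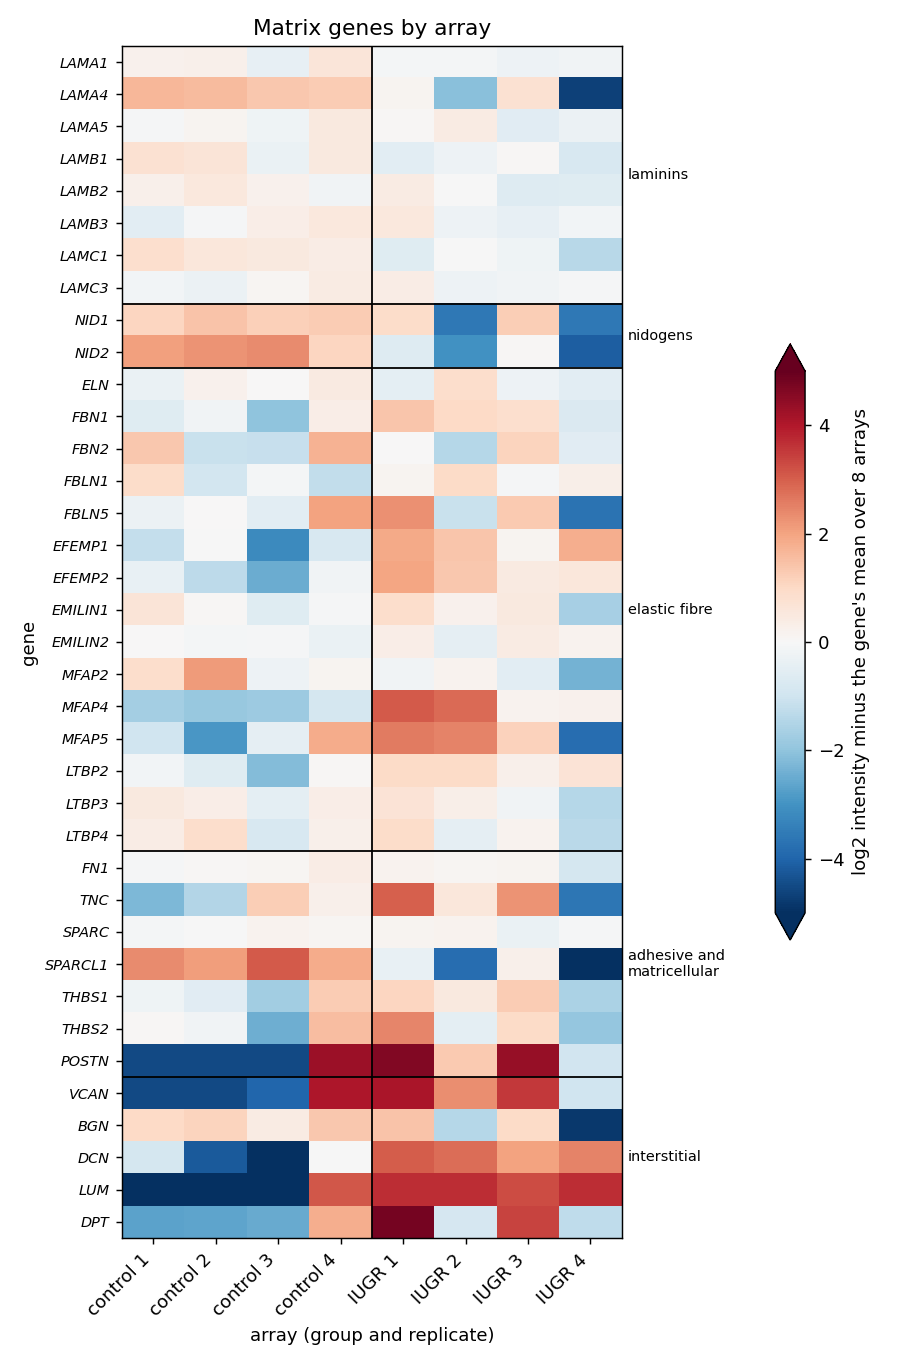
Heat map of the 37 measured matrix genes (vertical axis, ordered by role) on the 8 arrays (horizontal axis), coloured by log2 intensity minus the gene's mean over the 8 arrays. Colours saturate at 5 in either direction. LUM, VCAN and POSTN are low in control replicates 1 to 3 and high in control replicate 4, and LAMA4, NID1, NID2 and SPARCL1 are lowest in IUGR replicates 2 and 4.

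**Figure D2:**
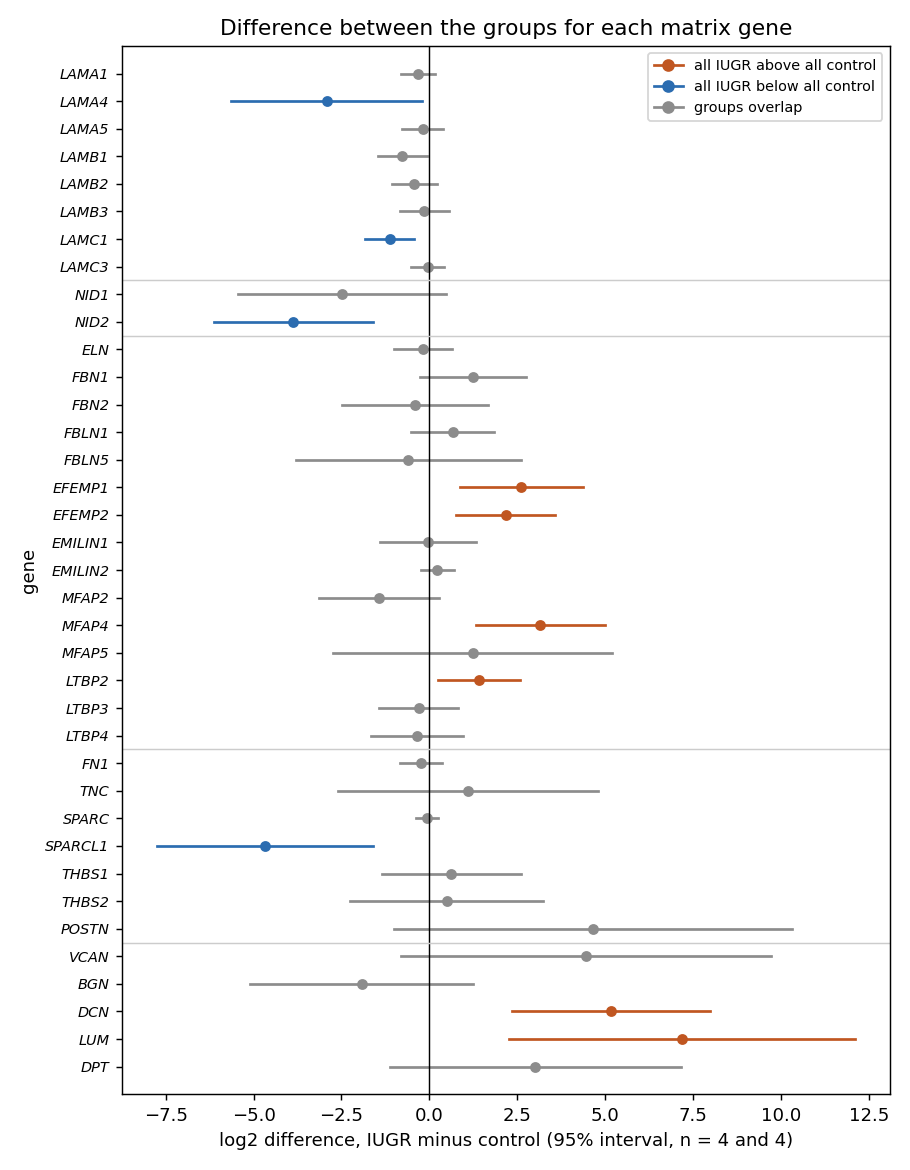
Log2 difference between the groups (IUGR minus control, horizontal axis) for each of the 37 genes (vertical axis), with the 95% interval from limma over 4 control and 4 IUGR arrays. Orange marks the 6 genes with every IUGR array above every control array, blue the 4 with every IUGR array below, and grey the genes whose groups overlap.

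Laminins are trimers of an alpha, a beta and a gamma chain, and the alpha 4, beta 1 and gamma 1 chains form a laminin of vascular basement membranes. All 8 measured laminin genes had a lower mean in IUGR cultures (against 7196 of all 14577 genes), and the median difference was -0.37. LAMA4 was 10.95, 10.87, 10.67 and 10.57 in control replicates 1 to 4 and 9.44, 7.24, 10.07 and 4.63 in IUGR replicates 1 to 4. The groups did not overlap, but IUGR replicate 3 lay close to the lowest control while IUGR replicate 4 was far below every other array. Its difference was -2.92 ± 1.15 (SE; limma adjusted p = 0.289). LAMC1 differed less from culture to culture, with 10.65, 10.38, 10.30 and 10.19 in control and 9.19, 9.80, 9.59 and 8.45 in IUGR. All IUGR values lay below all control values, and the group means stood 2.18-fold apart (difference -1.12, 95% interval -1.82 to -0.43, limma adjusted p = 0.155). LAMB1 was 10.87, 10.77, 9.78 and 10.61 in control and 9.58, 9.86, 10.19 and 9.33 in IUGR, and the groups overlapped through control replicate 3 (difference -0.77 ± 0.29 SE, limma adjusted p = 0.275).

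The other laminin chains had small differences. LAMA5, the alpha chain laid down by mature endothelium, was 6.60, 6.78, 6.43 and 7.13 in control and 6.71, 7.05, 6.08 and 6.37 in IUGR, with an interval for the difference of -0.76 to 0.39. LAMB2, a beta chain of mature vessels, was 6.04 to 6.75 in control and 5.58 to 6.61 in IUGR (difference -0.42). LAMB3, a chain of epithelial laminin, was 3.60 to 4.68 and 3.74 to 4.65 (difference -0.14), and the gamma chain gene LAMC3 was 4.28 to 4.97 and 4.32 to 4.95 (difference -0.04). LAMA1 differed by -0.32, and the groups overlapped for all 4 of these genes. Without IUGR replicates 2 and 4, where endothelial markers were lowest, the difference was -1.01 for LAMA4 and -0.99 for LAMC1. Adjusted for the mean of the endothelial markers, the LAMA4 difference turned to 0.29 and that of LAMC1 was -0.78 (limma unadjusted p = 0.773 and 0.144). That mean, as a deviation over the arrays, was 0.69 to 2.29 in control and -3.75 to 0.86 in IUGR. The groups shared little of its range, so this adjustment, here and below, cannot separate the markers from the group.

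Nidogens bridge laminin and collagen IV, and the 2 measured genes were lowest on the same arrays, IUGR replicates 2 and 4. NID2 was 10.39, 10.57, 10.70 and 9.39 in control and 7.67, 5.29, 8.40 and 4.22 in IUGR replicates 1 to 4. No IUGR value reached the lowest control, control replicate 4, and the group means stood 14.6-fold apart (difference -3.87, 95% interval -6.14 to -1.60, limma adjusted p = 0.141). NID1 was 8.67, 9.01, 8.78 and 8.87 in control and 8.50, 4.03, 8.83 and 4.03 in IUGR. Here IUGR replicates 1 and 3 lay at the control level, and the lower mean came from replicates 2 and 4, which were also lowest for NID2, PECAM1 and CDH5. Without those arrays the NID1 difference was -0.17 and that of NID2 -2.23. Adjusted for the endothelial markers the values were 1.22 and -0.87 (limma unadjusted p = 0.184 and 0.0555).

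**Figure D3:**
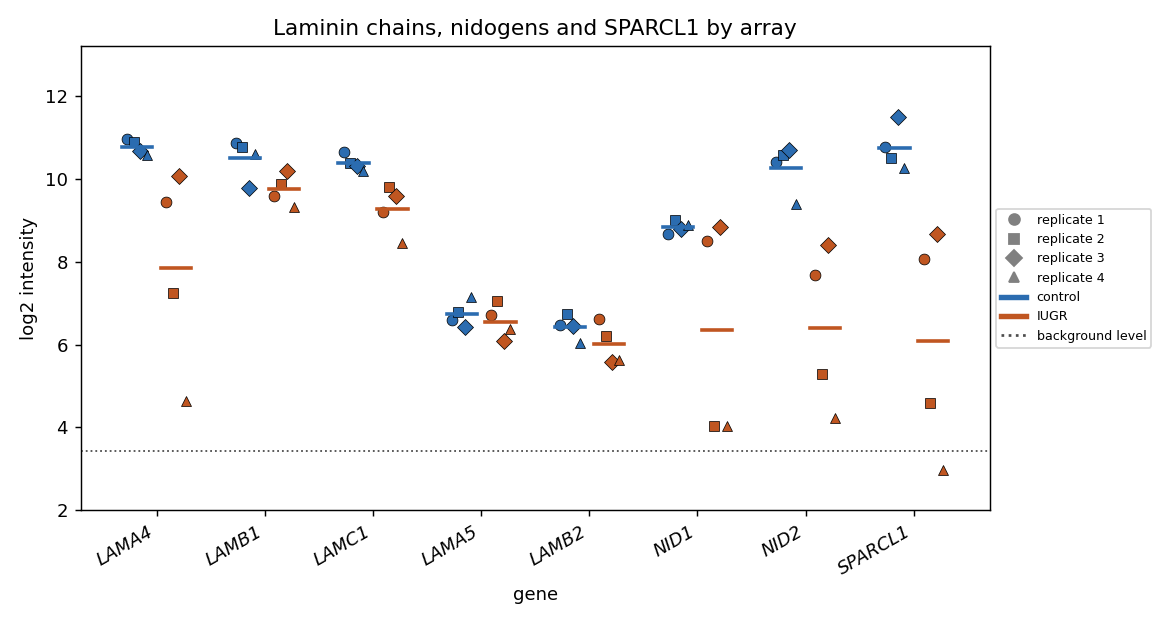
Log2 intensity (vertical axis) of 5 laminin chains, both nidogens and SPARCL1 on each array, with control in blue, IUGR in orange, a marker shape per replicate, bars at the group means and the background level dotted. In IUGR replicates 2 and 4 NID1 sits at 4.03, while replicates 1 and 3 sit at 8.50 and 8.83, beside the controls.

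Of the 15 measured elastic fibre genes, 8 had a higher and 7 a lower mean in IUGR, against 7381 and 7196 of all 14577 genes. ELN, elastin itself, was 5.54, 6.10, 5.89 and 6.30 in control and 5.38, 6.75, 5.61 and 5.35 in IUGR, and the groups overlapped (difference -0.18 ± 0.35 SE). With passage as a covariate the ELN difference turned to 2.14 ± 0.53 (SE). That adjustment rests on control replicate 1 and IUGR replicate 2, the only cultures whose passage differed from the rest of their group. IUGR replicate 2 had the highest ELN value, 6.75. FBN1, the main microfibril protein, was 8.45, 8.86, 7.03 and 9.37 in control and 10.42, 10.05, 9.87 and 8.32 in IUGR. Its IUGR values lay above all controls except in IUGR replicate 4, which was below control replicates 1, 2 and 4 (difference 1.24 ± 0.64 SE, limma adjusted p = 0.401). FBN2, a fibrillin made mostly before birth, ranged from 2.89 to 5.78 in control and from 2.64 to 5.18 in IUGR, with 3 of 8 arrays at or below background.

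Several fibulin and microfibril-associated genes had higher values in IUGR. EFEMP2, or fibulin 4, which recruits lysyl oxidase to elastin, was 7.14, 6.22, 5.02 and 7.34 in control and 9.49, 8.85, 7.98 and 8.09 in IUGR. EFEMP1, or fibulin 3, a secreted glycoprotein of the same family, was 7.52, 8.69, 5.53 and 7.92 in control and 10.62, 10.10, 8.87 and 10.56 in IUGR. Both were higher in 4 of 4 IUGR cultures than in any control, with control replicate 3 lowest for each. Their differences were 2.18 ± 0.59 and 2.62 ± 0.73 (SE), with limma adjusted p = 0.163 and 0.170. FBLN5, the fibulin that binds elastin to cell surface integrins, did not follow them, at 7.21, 7.51, 6.97 and 9.50 in control and 9.76, 6.40, 8.82 and 3.81 in IUGR. It was highest in control replicate 4 and IUGR replicates 1 and 3, and lowest in IUGR replicate 4. FBLN1, a fibulin also found with basement membranes, overlapped between groups, with 6.57 to 8.75 in control and 7.76 to 8.76 in IUGR.

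MFAP4, a glycoprotein that binds elastin and fibrillin, had a low, narrow range in control and 2 levels in IUGR. It was 4.07, 3.85, 3.94 and 4.86 in control and 8.82, 8.60, 5.94 and 5.97 in IUGR replicates 1 to 4. IUGR replicates 1 and 2 stood far above replicates 3 and 4, which were still above the highest control, replicate 4 (difference 3.15, 95% interval 1.32 to 4.99, limma adjusted p = 0.140). MFAP5, a small microfibril-associated glycoprotein, was 7.19, 5.26, 7.73 and 10.04 in control and 10.78, 10.66, 9.34 and 4.38 in IUGR. Control replicate 4 and IUGR replicates 1 to 3 were high and IUGR replicate 4 lay below every control. MFAP2, the other small microfibril-associated glycoprotein, had a lower mean, with 7.95, 9.23, 6.83 and 7.21 in control and 6.92, 7.28, 6.58 and 4.73 in IUGR. Its groups overlapped (difference -1.43 ± 0.72 SE). LTBP2, which binds fibrillin but not latent TGF-beta, was 6.67, 6.21, 4.65 and 6.87 in control and 7.77, 7.77, 7.06 and 7.50 in IUGR, so that the lowest IUGR array lay just above the highest control (difference 1.42, limma adjusted p = 0.241). LTBP3, which carries latent TGF-beta, was 6.03 to 7.01 in control and 5.12 to 7.23 in IUGR, and LTBP4, which also binds fibulins, 5.31 to 7.02 and 4.79 to 7.04 (differences -0.30 and -0.35). EMILIN1, an elastin-associated glycoprotein, was 6.04 to 7.26 in control and 4.98 to 7.52 in IUGR, and its relative EMILIN2 3.27 to 3.61 and 3.14 to 4.01 (differences -0.03 and 0.23). The groups overlapped for these 4 genes.

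Of the 7 adhesive and matricellular genes, SPARC had the narrowest range over the 8 arrays. FN1, fibronectin, was 12.05, 12.17, 12.20 and 12.48 in control and 12.29, 12.20, 12.24 and 11.23 in IUGR, with IUGR replicate 4 below the other 7 arrays. SPARC, a collagen-binding glycoprotein, was 11.79, 11.86, 12.07 and 12.01 in control and 12.02, 12.06, 11.55 and 11.82 in IUGR. The 95% intervals of the differences were -0.84 to 0.36 for FN1 and -0.38 to 0.24 for SPARC. SPARCL1, or hevin, a relative of SPARC made by vessel wall cells, went another way. It was 10.77, 10.49, 11.48 and 10.26 in control and 8.06, 4.59, 8.66 and 2.98 in IUGR, where replicate 4 lay below background. All IUGR values lay below all controls (difference -4.68, 95% interval -7.74 to -1.61, limma adjusted p = 0.168). Without IUGR replicates 2 and 4 it was -2.39, and adjusted for the endothelial markers -0.80 (limma unadjusted p = 0.357).

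For the thrombospondins, tenascin and periostin the groups overlapped. THBS1, an antiangiogenic glycoprotein that activates latent TGF-beta, was 10.76, 10.40, 9.24 and 12.23 in control and 12.04, 11.46, 12.25 and 9.39 in IUGR. It was highest in control replicate 4 and IUGR replicates 1 and 3. TNC, tenascin C, was 5.90, 6.65, 9.37 and 8.40 in control and 11.11, 8.69, 10.39 and 4.52 in IUGR, and its control values all lay inside the IUGR range. THBS2, a related thrombospondin, ranged from 4.27 to 8.25 in control and from 4.79 to 9.13 in IUGR. POSTN, periostin, a product of activated fibroblasts, was 2.56, 2.56, 2.56 and 11.36 in control, where 2.56 is the floor, and 11.73, 8.40, 11.43 and 6.12 in IUGR. The groups overlapped through control replicate 4 alone, since the other 3 controls lay far below the lowest IUGR array (difference 4.66 ± 2.39 SE, limma adjusted p = 0.401).

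Among the 5 interstitial genes, LUM and DCN had every IUGR array above every control, and VCAN, DPT and BGN overlapped. LUM, lumican, was 2.92, 2.76, 2.82 and 11.75 in control replicates 1 to 4 and 12.36, 12.34, 11.92 and 12.35 in IUGR replicates 1 to 4. Control replicates 1 to 3 lay below background and control replicate 4 just below the lowest IUGR array, so that the group SD was 4.46 in control and 0.22 in IUGR. The difference was 7.18 ± 2.08 (SE; limma adjusted p = 0.180). Without control replicate 4 the fitted difference, against controls all below background, was 9.41 ± 0.13 (SE) and LUM passed (limma adjusted p = 8.55e-06, with a range over all alternatives of 8.55e-06 to 0.842). With control replicates 1 to 3 raised to the background level, the IUGR mean was at least 447-fold higher than theirs. DCN, decorin, which binds collagen and TGF-beta, was 7.28, 3.95, 2.93 and 8.12 in control and 11.20, 10.95, 10.18 and 10.65 in IUGR. Its control values spread from below background to 8.12, and all lay below every IUGR value (difference 5.17, 95% interval 2.35 to 8.00, limma adjusted p = 0.128). Without control replicate 4 DCN also passed, at a difference of 6.03 ± 1.04 (SE; limma adjusted p = 0.0490, with a range over all alternatives of 0.0490 to 0.905). These were the 2 of 37 genes that passed in that setting, against 2.53% of all genes. Control replicate 4 was the highest control for both, so leaving it out removed the control value nearest to IUGR.

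BGN, biglycan, the closest relative of decorin in the set, did not share its pattern. It was 11.32, 11.43, 10.71 and 11.65 in control and 11.75, 8.89, 11.27 and 5.51 in IUGR, where replicates 1 and 3 lay at the control level and replicates 2 and 4 below it. Without those 2 arrays the BGN difference turned from -1.92 to 0.23. VCAN, versican, a large hyaluronan-binding proteoglycan of provisional matrix, was 2.91, 2.89, 3.47 and 11.46 in control and 11.49, 9.74, 10.95 and 6.41 in IUGR. DPT, dermatopontin, a small protein that binds decorin, was 3.18, 3.23, 3.36 and 7.69 in control and 10.64, 5.02, 9.26 and 4.58 in IUGR. For both, control replicates 1 to 3 lay near or below background and control replicate 4 lay inside the IUGR range. Their differences were 4.47 ± 2.22 and 3.01 ± 1.75 (SE), with limma adjusted p = 0.388 and 0.457.

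**Figure D4:**
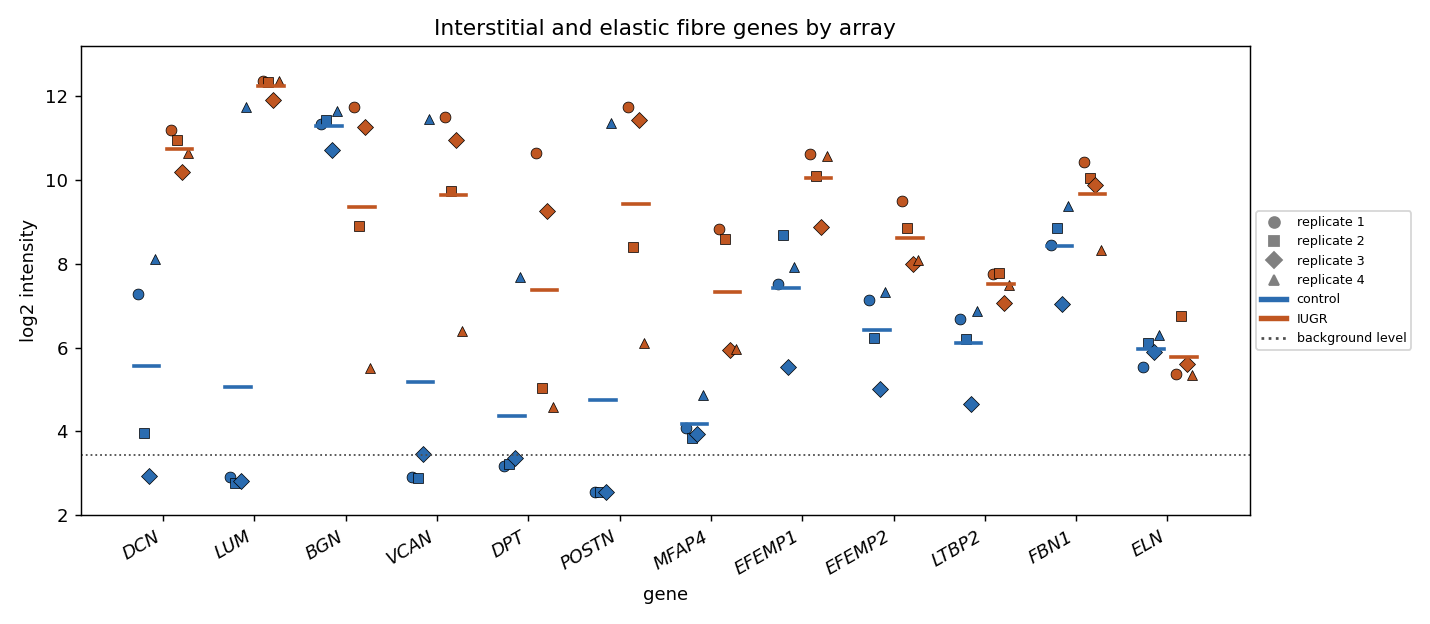
Log2 intensity (vertical axis) of 12 interstitial and elastic fibre genes on each array, with control in blue, IUGR in orange, a marker shape per replicate, bars at the group means and the background level dotted. Control replicate 4 (triangle) stands at 11.75 for LUM, 11.46 for VCAN and 11.36 for POSTN, apart from the other 3 controls, which lie at or near background.

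Within each label, single cultures stood apart for many genes. Control replicate 4 was the highest of the 4 controls for 21 of the 37 genes, and IUGR replicate 4 the lowest of the 4 IUGR arrays for 21. The shares over all genes were not counted, so these counts are not given as particular to the matrix genes. LUM and DCN were high in all 4 IUGR cultures, whereas POSTN, VCAN and DPT were highest in IUGR replicates 1 and 3, at 10.95 to 11.73 for POSTN and VCAN and 9.26 to 10.64 for DPT. In IUGR replicate 4 these 3 genes stood at 6.12, 6.41 and 4.58. The mean log2 deviation over the 5 interstitial genes was -3.43 to -2.56 in the first 3 controls, 2.05 in the fourth, and -0.18 to 3.41 in IUGR. That of the fibroblast markers outside the set was -2.04 to -1.91, 1.43, and 0.31 to 1.74 in the same arrays. For the 2 nidogens it was 1.17 to 1.83 in control and -3.84 to 0.66 in IUGR, beside 0.69 to 2.29 and -3.75 to 0.86 for the endothelial markers. Whether these lists moved with the matrix genes through the same cells was not tested. Without control replicate 4 and IUGR replicates 2 and 4, 5 of the 37 genes passed in limma, against 2.23% of all genes: NID2 lower, at -2.52, and POSTN, VCAN, LUM and DPT higher. The controls of these last 4 genes lay at or about background, so their differences are given as lower bounds, of 8.14, 7.77, 8.70 and 6.51 with control values raised to the background level. Control replicate 4 was the highest control for these 4 genes, and IUGR replicates 2 and 4 the lowest IUGR arrays for POSTN, VCAN and DPT. For NID2, control replicate 4 was the lowest control, at 9.39, and so the nearest to IUGR. With only IUGR replicates 2 and 4 left out, the NID2 limma adjusted p was 0.236. The passing of all 5 genes therefore rests in part on which arrays were left out. The POSTN controls that remained all stood at the floor, so they had no spread. That setting compares 3 arrays with 2, and 17 of the 37 genes had an unadjusted p under 0.05 (against 19.1% of all genes) and 21 had groups that did not overlap (against 34.1% of all genes).

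**Figure D5:**
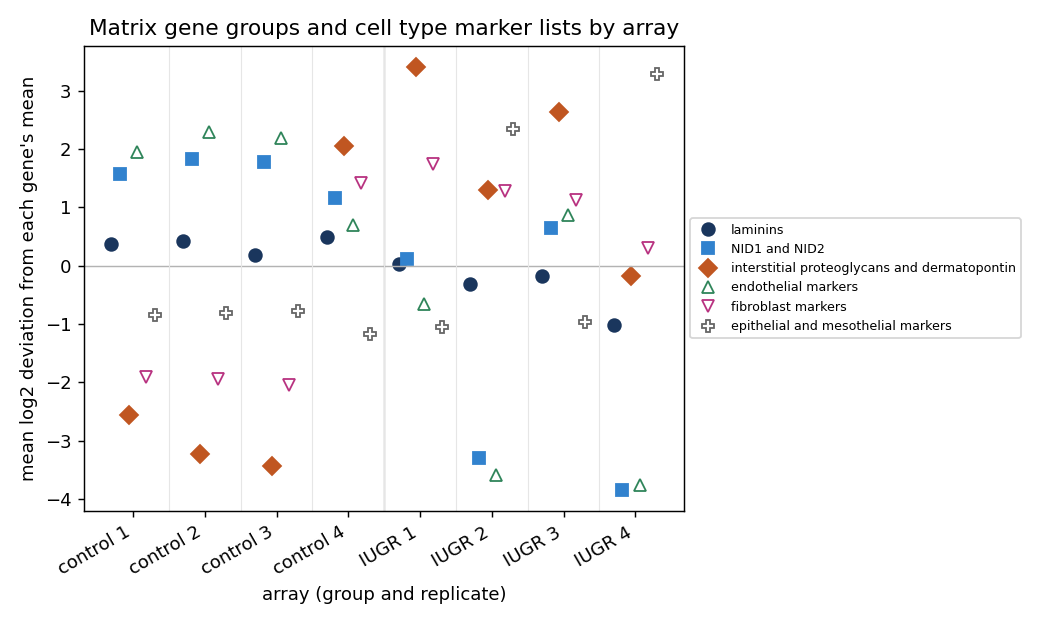
Mean log2 deviation of each gene group from its genes' means over the 8 arrays (vertical axis) on each array (horizontal axis). Filled symbols are matrix gene groups (8 laminins, NID1 and NID2, 5 interstitial genes) and open symbols are marker lists of endothelial, fibroblast, and epithelial and mesothelial cells. NID1 and NID2 and the endothelial markers are lowest in IUGR replicates 2 and 4, where epithelial and mesothelial markers are highest.

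Other noncollagen matrix genes were counted in the same fit. Of 49 listed 41 were measured, 0 passed over all genes in limma, 9 (against 8.2% of all genes) were higher and 5 (against 7.68% of all genes) lower at an unadjusted p under 0.05. The groups did not overlap for 10 higher genes (against 4.53% of all genes) and 4 lower ones (against 4.12% of all genes). HMCN1, hemicentin 1, which in worms anchors basement membranes, was 6.34, 6.38, 6.15 and 5.15 in control and 3.95, 2.75, 3.13 and 2.56 in IUGR (limma adjusted p = 0.0838). Since 3 of its 4 IUGR arrays lay below background, HMCN1 was at least 5.42-fold lower in IUGR, with those arrays raised to the background level. SPOCK2, a testican proteoglycan, was 4.88, 5.24, 5.34 and 4.47 in control and 3.88, 3.60, 3.91 and 3.69 in IUGR. SMOC2, a SPARC-related calcium-binding protein, lay below background in all controls, at 2.77, 3.14, 3.40 and 2.98, and at 6.00, 7.77, 5.50 and 8.05 in IUGR. SVEP1, a large adhesion protein of vessels and mesenchyme, was 2.89, 2.81, 2.99 and 4.70 in control and 8.17, 8.76, 5.94 and 8.57 in IUGR. For these 4 genes no IUGR value overlapped a control value, and the limma adjusted p was 0.0950 for each of SPOCK2, SMOC2 and SVEP1.

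Of 21 matrix receptor genes 19 were measured, 0 passed in limma over all genes, and 6 higher (against 8.2% of all genes) and 0 lower (against 7.68% of all genes) had an unadjusted p under 0.05. CD44, the hyaluronan receptor, was 3.31, 3.05, 3.13 and 5.87 in control and 8.03, 9.51, 8.08 and 8.42 in IUGR (difference 4.67 ± 0.71 SE, limma adjusted p = 0.0897). SDC4, syndecan 4, a co-receptor for fibronectin, was 4.60, 3.95, 4.85 and 7.44 in control and 7.96, 9.26, 7.63 and 10.35 in IUGR. CD47, a thrombospondin receptor, differed by 1.12 and the laminin-binding integrin gene ITGA7 by 1.78, both with overlapping groups. Of 5 elastin crosslinking enzymes 4 were measured and 0 passed in limma. LOX, lysyl oxidase, differed by 1.00 ± 0.41 (SE; limma adjusted p = 0.305), and LOXL1, LOXL2 and LOXL3 by 1.35, -0.01 and 1.63. Without control replicate 4, 8 of the 64 other matrix, receptor and enzyme genes passed in limma, against 2.53% of all genes. For all 8, the value of control replicate 4 lay on the IUGR side of the other controls. HMCN1, SPOCK2 and NPNT, or nephronectin, an integrin ligand of basement membranes, were lower. The SPOCK2 difference was -1.38, and HMCN1 and NPNT, with 3 of 4 IUGR arrays below background, were at least 6.60-fold and 5.88-fold lower. CD47, SDC4 and MFGE8, a secreted glycoprotein that binds integrins, were higher, at 1.42, 4.33 and 1.96. SVEP1 and CD44, whose other 3 controls lay below background, were at least 21.4-fold and 33.6-fold higher. The MFGE8 value of the control left out, 10.95, lay above every IUGR array (9.28 to 10.23). With all 8 arrays the MFGE8 difference was 1.20 ± 0.74 (SE; limma adjusted p = 0.484), and the CD47 and NPNT groups also overlapped.

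Passage limits every difference above, since its ranges do not overlap between the groups. Within the groups only control replicate 1 and IUGR replicate 2 differ in passage from the rest, so adjustment for passage rests on these cultures. With passage as a covariate 1 of the 37 genes, ELN, had an unadjusted limma p under 0.05 (against 8.49% of all genes). Adjusted for the endothelial markers it was also 1, EMILIN2 (against 6.99% of all genes). With passage, the LAMC1, NID2, DCN and LUM differences were -0.67 ± 0.95, -5.92 ± 3.03, 2.67 ± 3.78 and 10.92 ± 6.67 (SE).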

How the data were processed

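The submitters deposited linear intensity values in 1 table of 15380 rows, 1 per gene symbol or NCBI gene number. Per the labels, Trizol served to extract the RNA and an Affymetrix protocol to make the biotinylated cRNA. Background correction, probe summary and normalization are not given in the sources used here. Array medians were 37.7 to 41.1 intensity units, so the deposited values were not normalised again. Values under the 10th percentile (5.89 units) were raised to it before log2, which understates differences of dim genes. Rows were named through the RefSeq table of assembly ARS-UI_Ramb_v3.0, for names only. Of the rows, 12809 were symbols in it, 47 synonyms and 109 gene numbers with a symbol, 1617 kept their name, 798 without a symbol were left out and 5 were merged by highest mean, leaving 14577 genes. No coordinates or sequences are reported.

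IUGR was compared with control in limma 3.58.1 under R 4.3.3 (eBayes on the 8 arrays, two-sided, without covariates), with Benjamini-Hochberg adjustment over all 14577 genes and a threshold of 0.05. The fit was tested on simulated normal data with a capped spread, so that test does not cover spreads such as that of LUM in control (SD 4.46). Exact permutation tests used all 70 assignments. Replicate numbers follow the order of deposition and pair no samples, and p-values measure the spread between these cultures. The members and gene lists were chosen with earlier results of these data known. Values on every array are given for the 14 members with the smallest unadjusted p, members whose groups do not overlap, and FN1, ELN, FBN1, LAMA4, LAMA5, LAMB1, LAMC1, NID1, SPARC, THBS1, TNC, DCN, LUM, BGN and VCAN. MFAP5, FBLN5, POSTN and DPT were given so after their values were seen. Other matrix lists gave up to 4 genes by p, and PECAM1, CDH5, PDGFRA, KRT18, MYH11 and PTPRC were fixed among the markers. All other genes were named after their values were seen. The alternatives are other normalizations, offsets, priors, weights, covariates, blocks, filters and arrays left out. The number of arrays limits the precision.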

Additional observations from a re-analysis of the deposited data

Results flagged for a closer look

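A culture stood far from the other 3 of its group in 7 of 74 checks (37 genes in each of 2 groups), and chance flags about 1 in 20. Control replicate 4 gave 4 of them, all high. LUM was 11.75 there against 2.76 to 2.92 in the other controls, VCAN 11.46 against 2.89 to 3.47, POSTN 11.36 against 2.56, and DPT 7.69 against 3.18 to 3.36. In IUGR replicate 4, FN1 was 11.23 against 12.20 to 12.29. In IUGR replicate 3, LUM was 11.92 against 12.34 to 12.36, and in control replicate 3, LTBP3 was 6.03 against 6.86 to 7.01.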

How the results depend on the processing

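Counts and directions were recomputed under each alternative. The number of genes passing, 10 of 14577, became 19 with quantile normalization, 3 with median centring, 61 with log2(value + 1), 0 with log2(value + 32), 120 with genes above background, 1 with a trended prior, 0 with a robust prior, 74 with array weights, 0 with passage, 0 with the endothelial score, 0 at the row level, and 0 to 369 when each array was left out. Without control replicate 4 it was 369, and without any one of the other arrays 0 to 3. Without IUGR replicates 2 and 4 it was 0, and without these and control replicate 4 it was 325. Of the 37 matrix genes 0 passed, 0 to 2 when each array was left out (2 without control replicate 4) and 5 without the 3 arrays just named. In that last setting, of 3 arrays against 2, 17 genes had an unadjusted p under 0.05 (against 19.1% of all genes) and 21 did not overlap between groups (against 34.1% of all genes), against 11 (15.9%) and 10 (8.65%). With passage or with the endothelial score as a covariate, 1 gene each had an unadjusted p under 0.05, ELN and EMILIN2. Of the other matrix, receptor and enzyme genes 0 passed, 4 with log2(value + 1), 8 with genes above background, 4 with array weights, 0 to 8 when each array was left out (8 without control replicate 4) and 7 without the 3 arrays. At an unadjusted p under 0.05, 21 became 10 with passage. The causes were not tested.

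Of the log2 differences of single matrix genes, 754 values kept their direction and side of the threshold, 7 newly passed and 52 turned. With passage they turned to LAMA5 0.87, LAMB3 0.57, ELN 2.14, FBLN1 -0.42, EMILIN2 -0.93, FN1 0.40, SPARC 0.51 and THBS2 -1.23, with the endothelial score to LAMA4 0.29, NID1 1.22, FBN2 0.42, FBLN5 2.09, EMILIN1 1.04, LTBP3 0.18, LTBP4 0.66, FN1 0.13 and BGN 1.34, with array weights to LAMC3 0.033 and EMILIN1 0.037, and with log2(value + 32) to EMILIN1 0.034. Without IUGR replicates 2 and 4 they turned to LAMC3 0.090, FBN2 0.38, FBLN5 1.49, EMILIN1 0.67, LTBP3 0.11, LTBP4 0.37, FN1 0.036 and BGN 0.23, and without these and control replicate 4 to LAMB3 0.14, LAMC3 0.22, FBN2 0.89, FBLN5 2.06, EMILIN1 0.65, LTBP3 0.17, LTBP4 0.39, FN1 0.12 and BGN 0.36. Leaving out each array in turn gave ranges of -0.35 to 0.014 for LAMB3, -0.17 to 0.088 for LAMC3, -0.85 to 0.11 for FBN2, -1.46 to 0.53 for FBLN5, -0.33 to 0.52 for EMILIN1, -0.58 to 0.12 for LTBP3, -0.71 to 0.038 for LTBP4, -0.34 to 0.015 for FN1, -0.13 to 0.036 for SPARC and -0.23 to 1.22 for THBS2. The cause was not tested. LAMC1, NID2, EFEMP1, EFEMP2, MFAP4, LTBP2, SPARCL1, DCN and LUM kept their direction in all 22 alternatives, and LAMA4 in all but the endothelial score. The groups of these genes do not overlap, so no array left out can turn them, and that part is no further test. Of the genes with overlapping groups, LAMB1, LAMB2, FBN1, MFAP2, MFAP5, TNC, THBS1, POSTN, VCAN and DPT also kept their direction in all 22. LAMA1 kept it in the 21 alternatives that held it. The number of arrays and their distance from the background level of 3.44 limit these values. Growth restriction, hyperthermia and passage cannot be told apart, and genes at background have no order.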
